A study of Rattus norvegicus with 12 samples.

Results

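Mesothelial genes are described here in RNA from rat hearts after sorafenib or water. The 8 genes are Muc16, Msln, Upk1b, Upk3b, Lrrn4, Krt19, Krt8 and Wt1, taken by symbol from count tables of 34322 genes, and all 8 were found. The genes were named by symbol and chosen by their levels in these libraries, which were known at the time. Those levels are therefore given as a description, and the p-values printed beside them are no independent support. Male Sprague-Dawley rats of wild-type genotype received sorafenib, a cancer drug that blocks RAF kinases and receptor tyrosine kinases, by gavage at 50 mg per kg daily, or deionized water by the same route. Treatment lasted 14 or 28 days. There were 4 groups of 3 libraries. By the numbers in their titles these are replicates 2, 3 and 7 of water and 5, 6 and 7 of sorafenib at day 14, and replicates 2, 3 and 4 of each at day 28. The labels do not say that each library came from its own rat, and a p-value here compares a difference with the scatter among libraries, which may be technical.

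Mesothelium is the flat epithelium that lines the pleural, peritoneal and pericardial cavities and covers the organs within them. On the heart it forms the outer layer of the epicardium and the inner lining of the pericardium. Its cells carry glycoproteins that keep the surfaces sliding, hold on to keratins, and express the transcription factor WT1, which is also known from podocytes and from some endothelial cells of the heart. In RNA of a whole piece of heart, the level of such genes depends on how much of this surface layer the piece holds and on how much of their RNA each cell makes. Fewer cells and less RNA per cell cannot be told apart in these bulk libraries.

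Total counts per library ranged from 13746366 to 18534816 at day 14. At day 28 they ranged from 16785038 to 26403196 in 5 libraries and reached 1036483 in sorafenib replicate 3. In that shallow library a single count equals 0.836 CPM (the count scaled to the size of its library, here after normalization by the trimmed mean of M-values, TMM), so most of the 8 genes rest there on 0 to 4 counts, and only Wt1, with 54 counts, is well measured. A gene without a count there could still be at up to 2.51 CPM (3 counts), and in the other libraries at up to 0.142 to 0.199 CPM. Sorafenib day 14 replicate 5 also stood apart from its group: over all genes its chi-square per gene was 51.21 and 44.35 against the other 2 libraries, which had 14.17 between them. It had the lowest summed level of 8 ventricular muscle genes (33492 CPM, against 52405 and 52920), and the ribosomal precursor Rn45s took 0.8417% of its counts, against 0.13% and 0.2897%. Water day 28 replicate 4 (51.83 and 40.12 against its mates) had chi-square values of like size, as did the pair of sorafenib day 28 replicates 2 and 4 (42.45). That single pair of deep libraries does not tell which of them stood apart. Rn45s took 1.255%, 1.643% and 0.286% of the counts in sorafenib day 28 replicates 2, 3 and 4. The mitochondrial ribosomal RNA mt-Rnr2 took 1.315%, 0.1785% and 0.2053% there. The days are held in separate tables, and the labels do not say whether their libraries were prepared together. Time on treatment, age and any difference in preparation between the tables cannot be told apart.

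Of the 8 genes, 7 shared a pattern across libraries and Wt1 did not. Muc16, Msln, Upk1b, Upk3b, Lrrn4, Krt19 and Krt8 were highest in water day 14 replicates 3 and 7 or, for Krt8, in replicate 3 and the shallow library. All 7 were highest in water day 14 replicate 3. Sorafenib day 14 replicate 5, the library that stood apart, was the highest of its group for each of them. Water day 14 replicate 2 was low for these genes, and the water libraries of day 28 held the lowest summed level. Wt1 stayed between 14.4 and 45.2 CPM in all 12 libraries. CPM values are TMM-normalized unless raw CPM is stated.

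**Figure D1:**
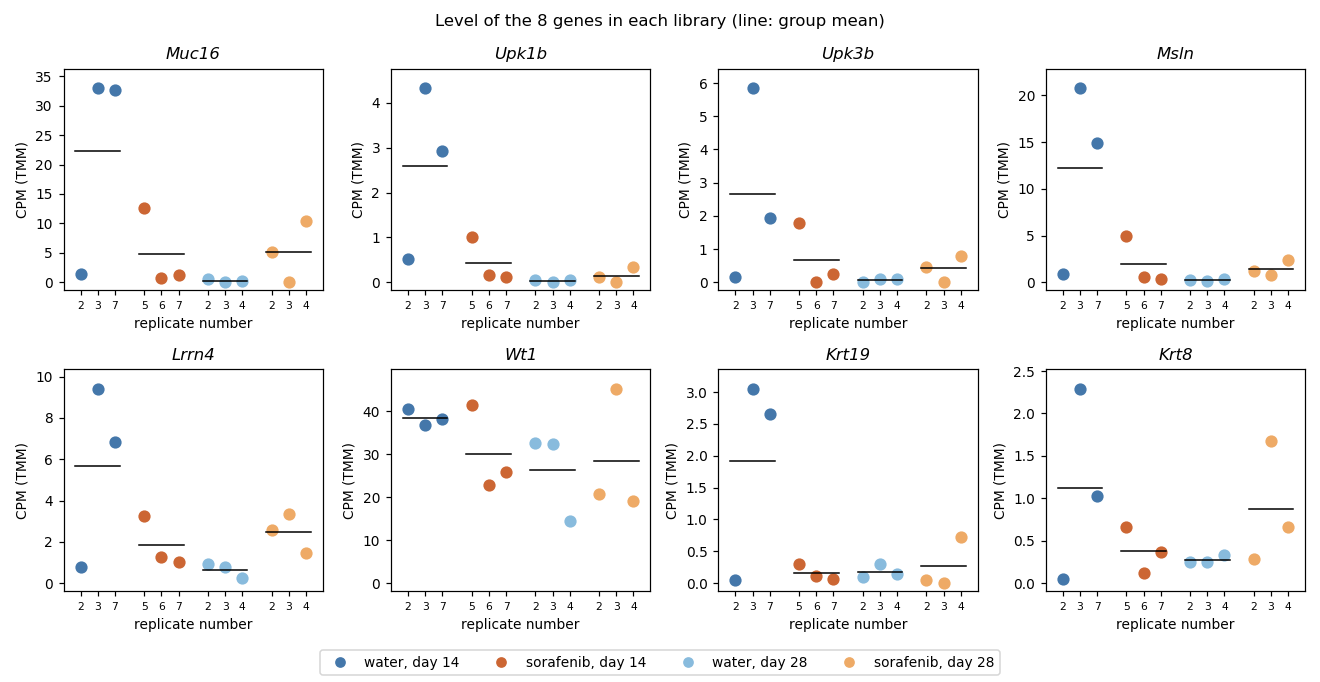
Level of each of the 8 genes in every library, in TMM-normalized CPM on a linear axis that differs between panels; points are libraries, labelled by replicate number, and black lines are group means. In 7 panels water day 14 replicate 3 is the highest point, and in the panel of Wt1 the points of all groups lie between 14.4 and 45.2 CPM.

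The sequences before the starts of these genes are shown because the genes differ in whether they share the pattern. RefSeq's promoter table of the rat assembly GRCr8 held 5 of the 8 genes, and Muc16, Msln and Krt19 had no entry. The window of Upk3b, which shares the pattern, held neither of the motifs marked below and is not shown. That of Wt1, which does not share the pattern, is shown and also held neither. Windows without a marked motif were thus found for genes with and without the pattern. Each line holds the 250 bases before the annotated start, 5′ to 3′ on the gene's strand. Upk1b lies at chr11:75459131-75459380 on the plus strand, Lrrn4 at chr3:140603987-140604236 on the minus strand, Krt8 at chr7:135010340-135010589 on the minus strand and Wt1 at chr3:112021759-112022008 on the plus strand. Capitals mark GGAATG, the core motif of the TEAD factors, in either orientation (CATTCC on the strand shown), and TATAAA, the TATA box, in either orientation (TTTATA on the strand shown).
Upk1b: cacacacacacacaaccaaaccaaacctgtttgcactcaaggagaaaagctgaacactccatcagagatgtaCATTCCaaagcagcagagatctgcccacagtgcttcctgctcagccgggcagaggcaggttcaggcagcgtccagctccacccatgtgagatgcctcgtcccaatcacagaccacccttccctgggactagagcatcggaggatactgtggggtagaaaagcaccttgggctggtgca
Lrrn4: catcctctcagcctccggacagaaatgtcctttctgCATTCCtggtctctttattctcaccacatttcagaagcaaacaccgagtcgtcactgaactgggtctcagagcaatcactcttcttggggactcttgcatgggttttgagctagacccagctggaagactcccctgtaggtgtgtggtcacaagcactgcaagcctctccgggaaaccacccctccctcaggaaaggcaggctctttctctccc
Krt8: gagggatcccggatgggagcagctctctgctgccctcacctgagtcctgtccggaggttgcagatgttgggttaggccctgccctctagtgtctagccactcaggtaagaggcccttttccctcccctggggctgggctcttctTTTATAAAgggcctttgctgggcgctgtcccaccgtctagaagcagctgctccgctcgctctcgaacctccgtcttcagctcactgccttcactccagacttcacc
Wt1: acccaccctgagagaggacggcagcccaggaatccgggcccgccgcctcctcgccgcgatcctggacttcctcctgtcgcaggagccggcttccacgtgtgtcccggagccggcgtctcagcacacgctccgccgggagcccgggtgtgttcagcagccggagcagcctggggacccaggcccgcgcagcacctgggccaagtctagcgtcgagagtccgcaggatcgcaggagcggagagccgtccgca
GGAATG was present in 2 of the 5 windows, at position -178 from the start in Upk1b and at -214 in Lrrn4, and in 12.1% of all 33469 windows of this length. TATAAA was present in 1 of 5, that of Krt8, and in 12.9% of all. Its 2 matches there, at -106 and -104, overlap on opposite strands. The motif GNGTGGGNG, bound by WT1 and EGR1, was found in 0 of 5 and in 11.3% of all. The window of Wt1 held 27 CpG dinucleotides and 71.6% G and C, against 4, 1, 4 and 8 CpG dinucleotides in those of Upk1b, Upk3b, Lrrn4 and Krt8. The median window held 5, and the 90th percentile was 24. These are matches of letters, not measured sites.

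Muc16 encodes a large membrane mucin, known as CA125, of mesothelial and ocular surfaces. It lies on chromosome 8 of mRatBN7.2 from 16164531 to 16323126, and 89 exon blocks were counted. At day 14 Muc16 was at 1.36, 33.0 and 32.6 CPM in water replicates 2, 3 and 7 and at 12.7, 0.747 and 1.21 CPM in sorafenib replicates 5, 6 and 7. At day 28 it was at 0.589, 0 and 0.284 CPM in water replicates 2, 3 and 4 and at 5.12, 0 and 10.4 CPM in sorafenib replicates 2, 3 and 4. Within each of 3 groups the libraries thus spread widely, and in water day 28 all of them were at 0.589 CPM or less. The groups overlapped at both days. At day 28 this rests on the shallow sorafenib replicate 3, which had no count of Muc16, while the other sorafenib libraries had 89 and 156 counts and all water libraries together 18.

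Msln encodes mesothelin, a lipid-anchored surface protein that binds the product of Muc16. It lies on chromosome 10 from 14771946 to 14781382. At day 14 Msln was at 0.939, 20.8 and 14.9 CPM in water replicates 2, 3 and 7 and at 4.98, 0.517 and 0.303 CPM in sorafenib replicates 5, 6 and 7. At day 28 it was at 0.196, 0.148 and 0.332 CPM in water replicates 2, 3 and 4 and at 1.21, 0.836 and 2.39 CPM in sorafenib replicates 2, 3 and 4. The groups overlapped at day 14 and did not overlap at day 28, where the value of sorafenib replicate 3 is 1 count. Per kilobase of exon, Msln was the highest of the 8 genes in water day 14 replicate 3, at 9.46 CPM per kilobase, against 5.35 for Wt1, 2.23 for Upk1b and 1.52 for Muc16.

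Upk1b and Upk3b encode uroplakins, membrane proteins best known from the bladder surface and also made by mesothelium. Upk1b lies on chromosome 11 from 61953687 to 61991029 and Upk3b on chromosome 12 from 20629491 to 20638193. At day 14 Upk1b was at 0.522, 4.33 and 2.93 CPM in water replicates 2, 3 and 7 and at 1.02, 0.172 and 0.121 CPM in sorafenib replicates 5, 6 and 7. Its day 28 counts were 1, 0 and 1 in the water libraries and 2, 0 and 5 in the sorafenib libraries. Upk1b was thus near the limit of detection in all libraries of day 28. Upk3b was at 0.156, 5.85 and 1.95 CPM with water at day 14 and at 1.80, 0 and 0.242 CPM with sorafenib. At day 28 Upk3b had 0, 2 and 2 counts with water and 8, 0 and 12 with sorafenib. For both genes the groups overlapped at each day. Exons of Upk3b overlap those of LOC120095913, which had at most 0.356 CPM. Of the uroplakins that mark urothelium, Upk2 and Upk3a had no count in any library, which allows a level of up to 0.0144 raw CPM over all 12, and Upk1a was at 0 to 0.836 CPM.

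Lrrn4 encodes a neuronal leucine-rich repeat protein that is used as a mesothelial marker in the lung. It lies on chromosome 3 from 120138093 to 120150877. At day 14 Lrrn4 was at 0.782, 9.41 and 6.84 CPM in water replicates 2, 3 and 7 and at 3.24, 1.26 and 1.03 CPM in sorafenib replicates 5, 6 and 7. The levels of Lrrn4 at day 28 were 0.933, 0.788 and 0.237 CPM with water and 2.59, 3.34 and 1.46 CPM with sorafenib. The groups overlapped at day 14. At day 28 all sorafenib libraries lay above all water libraries, also among the deep libraries alone. Exons of Lrrn4 overlap those of Crls1, a cardiolipin synthase gene at 11 to 24.2 CPM, and the counting ignored strand, so some counts of Lrrn4 may belong to Crls1.

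Krt8 and Krt19 encode keratins of simple epithelia. Krt19 lies on chromosome 10 from 85075835 to 85080552 and Krt8 on chromosome 7 from 133124203 to 133131656. Krt19 was at 0.0522, 3.05 and 2.66 CPM in water replicates 2, 3 and 7 of day 14, and at 0 to 0.731 CPM in the other 9 libraries. Krt8 was at 0.0522, 2.29 and 1.03 CPM in the same water libraries and at 0.115 to 0.66 CPM with sorafenib at day 14. By day 28 Krt8 was at 0.246, 0.246 and 0.332 CPM with water and at 0.288, 1.67 and 0.665 CPM with sorafenib, where 1.67 CPM is 2 counts in the shallow library. Krt19 was thus low outside water day 14 replicates 3 and 7, and Krt8 was low outside these and the shallow library. The groups of both keratins overlapped at each day.

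Wt1 encodes a zinc finger transcription factor of the epicardium and of other mesothelia. It lies on chromosome 3 from 91566540 to 91613653. At day 14 Wt1 was at 40.5, 36.7 and 38.2 CPM in water replicates 2, 3 and 7 and at 41.4, 22.9 and 25.8 CPM in sorafenib replicates 5, 6 and 7. In the libraries of day 28 it was at 32.5, 32.4 and 14.4 CPM with water and at 20.8, 45.2 and 19.1 CPM with sorafenib. In the water libraries of day 14 Wt1 had an SD of 1.91 CPM around a mean of 38.4, and Muc16 an SD of 18.2 CPM around a mean of 22.3. Wt1 had the highest CPM of the 8 genes, and the highest mean per kilobase over all libraries, 4.5 CPM per kilobase against 1.81 for Msln and 0.261 to 0.587 for the other 6. The order of Lrrn4 (0.587), Krt19 (0.457), Upk1b (0.414), Muc16 (0.376), Krt8 (0.299) and Upk3b (0.261) within that range lies within their spread between libraries.

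Summed over the 7 genes without Wt1, the level per library gives a gauge of the shared pattern. Wt1 was left out after it was seen not to follow the other 7. The sum is therefore a description and no independent support for the pattern. It was 3.86, 78.7 and 63.0 CPM in water day 14 replicates 2, 3 and 7 and 24.7, 2.93 and 3.33 CPM in sorafenib day 14 replicates 5, 6 and 7. In water day 28 replicates 2, 3 and 4 it was 2.11, 1.58 and 1.47 CPM, and in sorafenib day 28 it was 9.85, 5.85 and 16.7 CPM. The span within water day 14 was thus larger than that between most groups, and the water libraries of day 28 lay below the other 9. In raw CPM the sum was 83.5 (95% Wilson interval 79.4 to 87.7) in water day 14 replicate 3 and 4.07 (3.24 to 5.11) in replicate 2 of the same group. In the shallow library it rested on 7 counts, 6.75 raw CPM (3.27 to 13.9). The intervals cover counting error only. With Wt1 included, the sum was 44.3, 115 and 101 CPM in water day 14 and 15.9 to 66.1 CPM in the other 9 libraries.

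**Figure D2:**
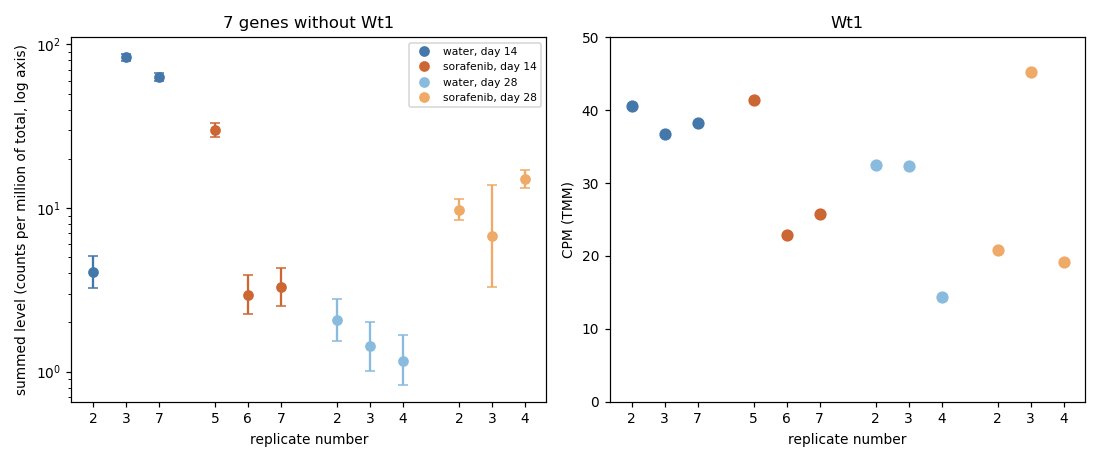
Left, summed raw CPM of the 7 genes without Wt1 in each library on a log axis, with 95% Wilson intervals for counting error; right, TMM-normalized CPM of Wt1 on a linear axis. Points are libraries, labelled by replicate number and coloured by group. On the left water day 14 replicates 3 and 7 lie at 83.5 and 63.1 and the water libraries of day 28 at 2.07 or less.

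The share of single genes in this sum also varied. Muc16 supplied 42.0% of the counts (95% Wilson interval 39.5 to 44.4) in water day 14 replicate 3, 51.8% (48.9 to 54.7) in replicate 7, 51.3% (46.5 to 56.1) in sorafenib day 14 replicate 5, 52.0% (44.6 to 59.4) in sorafenib day 28 replicate 2 and 61.9% (55.8 to 67.7) in sorafenib day 28 replicate 4. These are the 5 libraries with the highest sums. In the other deep libraries it supplied between 0% and 36.4%. Msln supplied 26.4% (24.2 to 28.6) and 23.7% (21.3 to 26.2) in water day 14 replicates 3 and 7, and 12.3% (8.17 to 18) and 14.3% (10.5 to 19.1) in sorafenib day 28 replicates 2 and 4. The share of Msln in the sum was thus higher in the former pair of libraries, beyond counting error, and the share of Muc16 in sorafenib day 28 replicate 4 was above that of water day 14 replicate 3.

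Sorafenib and water were first compared at day 14. The summed counts of the 7 genes gave a level with sorafenib of 0.215 times that with water (exact interval for counting error 0.195 to 0.236), but the libraries of the groups overlapped, since water replicate 2 at 3.86 CPM lay below sorafenib replicate 5 at 24.7 CPM. Single libraries moved this ratio, to 0.0619 without sorafenib replicate 5 and to 0.148 without water replicate 2. Of the 8 genes, 7 passed the filter on low counts and Krt19 did not. The fitted log2 fold changes were -2.18 ± 1.52 (SE) for Muc16, -2.64 ± 1.36 for Msln, -2.54 ± 0.86 for Upk1b, -1.95 ± 1.35 for Upk3b, -1.61 ± 0.81 for Lrrn4, -1.55 ± 0.95 for Krt8 and -0.35 ± 0.21 for Wt1. None (0) of the 7 passed edgeR's quasi-likelihood test, with adjusted p from 0.251 for Upk1b to 0.573 for Muc16, so the test did not separate these differences from the spread between libraries. Over all 17406 genes tested 0% were called, 2440 had an unadjusted p under 0.05, and DESeq2 called 438. Without sorafenib replicate 5 the value of Muc16 was -4.51 and that of Msln -4.87, also not past the threshold (adjusted p = 0.361 and 0.299).

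At day 28 the summed level of the 7 genes without Wt1 was higher with sorafenib, and that of all 8 overlapped between the groups, at 30.7 to 51 CPM with sorafenib and 15.9 to 34.6 CPM with water. For the 7 genes it was 7.99 times that with water (6.45 to 9.98; 6.31 to 9.54 with each library left out), and the sorafenib libraries at 5.85 to 16.7 CPM all lay above the water libraries at 1.47 to 2.11 CPM. By summed counts Muc16 was 26.8 times as high (16.6 to 46.0), Msln 8.16 times (4.5 to 15.8) and Lrrn4 3.5 times (2.34 to 5.29), again with intervals for counting error only. The ratio of Muc16 was 56.5 without water replicate 2, which held 12 of the 18 water counts, and 18.2 without water replicate 3, which held 0. Of the 8 genes, 4 passed the filter, and Upk1b, Upk3b, Krt19 and Krt8 did not. The fitted log2 fold changes were 4.36 ± 0.95 (SE) for Muc16, 2.85 ± 0.63 for Msln, 1.80 ± 0.63 for Lrrn4 and -0.01 ± 0.39 for Wt1. None (0) passed edgeR's test (adjusted p = 0.152, 0.152, 0.268 and 0.993). Without the shallow replicate 3 Muc16 was at 4.70 (adjusted p = 0.122), Msln at 2.97 (0.15) and Lrrn4 at 1.65 (0.342). Over all 17021 genes 0% were called, 2531 had an unadjusted p under 0.05, and DESeq2 called 279. Msln and Lrrn4 did not overlap between the groups, and sorafenib lay wholly above water in 9.81% of the 18174 genes tested in the fit of all libraries.

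The effects of both days were then set against each other in a fit of all 12 libraries, in which all 8 genes passed the filter. The difference, sorafenib against water at day 28 minus that at day 14, was 6.65 ± 2.0 (SE, log2) for Muc16, 5.52 ± 1.58 for Msln, 4.98 ± 1.67 for Upk1b and 4.97 ± 1.92 for Upk3b. It was 4.51 ± 1.66 for Krt19, 3.36 ± 1.06 for Lrrn4, 2.59 ± 1.35 for Krt8 and 0.30 ± 0.47 for Wt1. The adjusted p of edgeR's test was 0.999 for each. Over all genes 0% were called (803 with an unadjusted p under 0.05), and DESeq2 called 9, so a change of the effect between the days was not shown by this test. Averaged over the days, the log2 fold changes lay between -1.28 ± 0.84 for Krt19 and 1.13 ± 1.01 for Muc16. There 0 of the 8 passed, against 4.41% of all genes (801 of 18174).

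**Figure D3:**
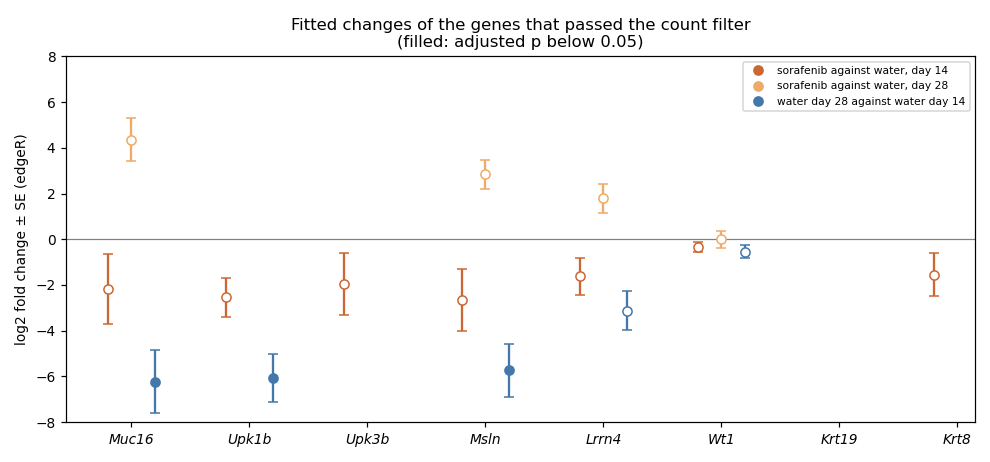
Fitted log2 fold changes with SE (edgeR) of the genes that passed the count filter of each comparison: sorafenib against water at day 14, the same at day 28, and water day 28 against water day 14. Filled symbols have an adjusted p below 0.05; they are Muc16, Upk1b and Msln in the water libraries over time, at -6.24, -6.08 and -5.73.

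The water groups of the 2 days, which are the controls of the comparisons above and are shared with them, differed more. The summed level of the 7 genes was 33.1 times as high at day 14 (27.3 to 40.6; 22.1 without water day 14 replicate 3), and the lowest water library of day 14, at 3.86 CPM, lay above the highest of day 28, at 2.11 CPM. Muc16, Msln and Upk1b fell (log2 fold changes -6.24 ± 1.38 (SE), -5.73 ± 1.16 and -6.08 ± 1.04; edgeR adjusted p = 0.039, 0.0263 and 0.0106), and their groups did not overlap. All water libraries of day 28 lay below all of day 14 in 16.1% of the 18174 genes tested in the fit of all libraries, and above them in 17.7%. Lrrn4 was at -3.12 ± 0.87 (edgeR adjusted p = 0.0595) with overlapping groups. Wt1 was at -0.55 ± 0.28 (0.235), and its groups did not overlap either, at 36.7 to 40.5 CPM and 14.4 to 32.5 CPM. Upk3b, Krt19 and Krt8 did not pass the filter. The groups of Upk3b did not overlap (0.156 to 5.85 and 0 to 0.0985 CPM), and those of Krt19 and Krt8 did. Of all 17210 genes 9.55% were called, 1191 higher and 452 lower at day 28. Markers of other cells differed in the same comparison. Of 5 genes listed for smooth muscle 5 rose, Myh11, Acta2, Tagln, Cnn1 and Des (edgeR adjusted p = 0.00563 to 0.0492). Des is not particular to smooth muscle, and its mean was 1440 CPM, against 1.48 to 80.3 CPM for the others of that list. Of 8 ventricular muscle genes the troponin genes Tnnt2 (1.22 ± 0.17, edgeR adjusted p = 0.0046) and Tnni3 (1.45 ± 0.21, 0.00575) rose. Of 6 endothelial genes Kdr fell (-0.49 ± 0.13, edgeR adjusted p = 0.0484). Their part in the levels of the 7 genes was not tested. Upk1b had 2 counts over the 3 water libraries of day 28, and by summed counts its level at day 14 was 94.1 times that at day 28 (exact interval 25.6 to 784).

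These calls depended on single libraries. Without water day 14 replicate 3 the adjusted p was 0.074 for Muc16 and 0.0625 for Msln. Without water day 28 replicate 2, 3 or 4 it was 0.12, 0.181 and 0.214 for Muc16 and 0.0942, 0.117 and 0.155 for Msln, with fewer libraries in the fit. In the water libraries of day 28 Muc16 had 12, 0 and 6 counts, Msln 4, 3 and 7 and Upk1b 1, 0 and 1. These genes passed the filter on low counts through water day 14, the group where they were high. How often they passed the threshold is therefore no independent support. Upk1b passed in 12 of 12 alternatives, at adjusted p of 1.89e-05 to 0.0496, and Muc16 and Msln in 7 of 13 and 7 of 12. Without the low water day 14 replicate 2 Lrrn4 passed as well (-3.64, adjusted p = 0.0128). Between the sorafenib groups of the 2 days, whose levels are set side by side without a test, the summed level at day 14 was 0.89 times that at day 28 (0.782 to 1.01, counting error only). This ratio rested on sorafenib day 14 replicate 5, without which it was 0.256, and it was above 1 without sorafenib day 14 replicate 6 (1.26) or 7 (1.22) or sorafenib day 28 replicate 4 (1.13).

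A list of 18 other genes known from mesothelium or epicardium was set beside the 8. In the difference between the days, 12 of the 18 were tested, 0 passed, and their median was -0.18 against -0.02 over all genes. At day 14 0 of 12 and at day 28 0 of 10 passed (medians -0.09 and 0.01), and at both days 0% of all genes were called. In the water groups over time 0 of 10 passed (median 0.04), where 9.55% of all genes were called (median -0.045), so 0 of 10 is near that share. The most abundant were Efemp1, a matrix protein of fibroblasts and mesothelium, Gpm6a, a membrane glycoprotein, Tbx18, a transcription factor of the epicardium, and Igfbp6, which binds insulin-like growth factors. Efemp1 was at 8.36 to 24.3 CPM and Tbx18 at 10.2 to 22.6 CPM. Igfbp6 was at 3.11 to 12.1 CPM. Gpm6a ranged from 16.2 to 34.4 CPM at day 14 and from 1.28 to 15.7 CPM at day 28. Summed over the 18 genes, the level was 64.0 to 91.7 CPM in water day 14, 66.6 to 97.2 in sorafenib day 14, 56.8 to 72.2 in water day 28 and 57.4 to 93.6 in sorafenib day 28, so these sums overlapped between all groups.

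Of this list, Bnc1, Nkain4 and Chst4 were singled out after their values had been seen, because they were high in the same libraries as the 7 genes. Bnc1 encodes basonuclin, a zinc finger protein of squamous epithelia and mesothelium. In the order used above, Bnc1 was at 0.365, 2.95 and 2.12 CPM in water day 14 and at 1.86, 0.46 and 0.182 CPM in sorafenib day 14. In water day 28 Bnc1 was at 0.147, 0.493 and 0.237 CPM and in sorafenib day 28 at 1.38, 0 and 0.93 CPM. Nkain4 was at 0.104, 1.78 and 1.19 CPM in water day 14 and at 0 to 1.27 CPM elsewhere. Chst4 was at 0, 1.58 and 0.76 CPM there and at 0.18 CPM or less elsewhere. Calb2, which encodes calretinin, a marker used for mesothelioma, had counts in 1 library, sorafenib day 14 replicate 7, at 0.0606 CPM. Dmkn was at 0.271 CPM or less. The 3 genes singled out thus had their highest values in water day 14 replicate 3, as the 7 genes did, while Calb2 and Dmkn stayed near 0. Others of the list went the other way. Slpi, a protease inhibitor of secretions, was at 2.61, 0.102 and 0.109 CPM in water day 14 and at up to 7.91 CPM in the other deep libraries. Its r with the mean of the 8 genes (Pearson, over the 11 deep libraries) was -0.489, that of Prg4 -0.295 and that of Igfbp6 -0.211. After the mean of each group was removed, r was -0.341 for Slpi, -0.076 for Prg4 and 0.354 for Igfbp6.

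**Figure D4:**
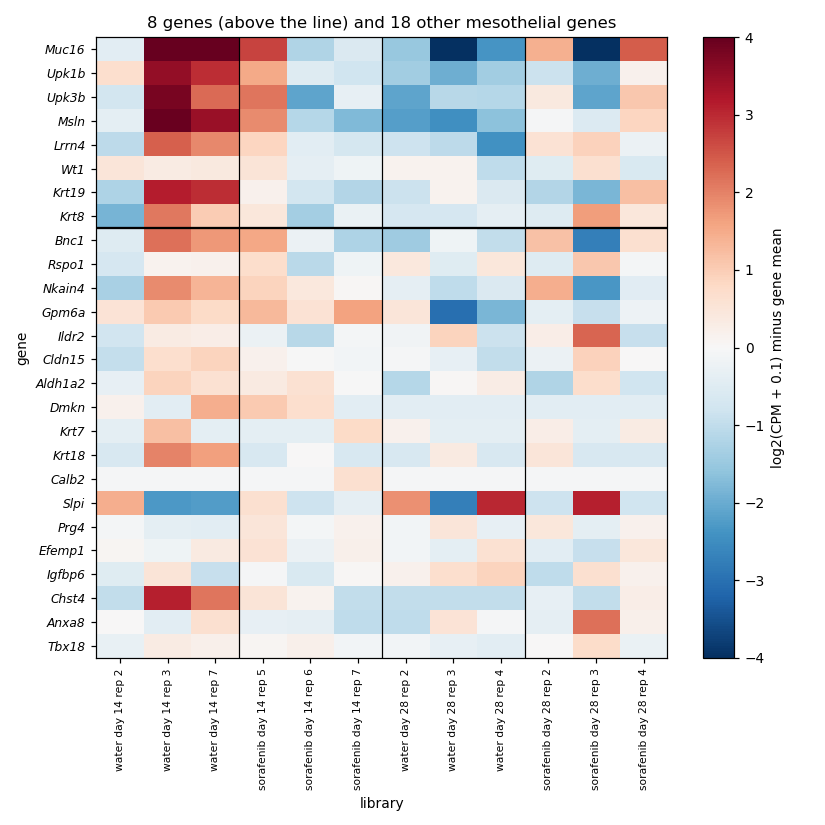
Heat map of log2(CPM + 0.1) minus the mean of each gene over the 12 libraries, for the 8 genes above the line and 18 other mesothelial genes below it; columns are libraries in group order, and colours stop at 4 in either direction. Water day 14 replicates 3 and 7 are strongly red in most of the upper rows and in those of Bnc1, Nkain4, Krt18 and Chst4.

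Markers of other cells that a piece of heart could carry were read in the same libraries. Of 11 airway and alveolar genes Sftpa1 and Scgb3a2 had no count, and Sftpb and Sftpd were at 0.147 CPM or less. Ager, the receptor for glycation end products and the most abundant of them, was at 2.51 to 8.36 CPM. The sum of the 11, on which the shallow library has 16 counts, was 6.35 to 7.02 CPM in water day 14, 6.09 to 6.24 in sorafenib day 14, 4.31 to 8.25 in water day 28 and 8.51 to 13.4 in sorafenib day 28. At day 28 these sums were all higher with sorafenib than with water, but the nearest libraries were at 8.51 and 8.25 CPM. The groups of Ager overlapped at day 28. Averaged over the days, 4 of the 11 were tested and 2 were called, against 4.41% of all genes. Scgb1a1, the club cell secretoglobin, rose with sorafenib (1.80 ± 0.40 (SE), edgeR adjusted p = 0.0286) and Napsa, an aspartic protease, fell (-1.61 ± 0.41, 0.0423). Scgb1a1 was at 0.104, 0.56 and 0.76 CPM in water day 14, 0.969 to 1.02 in sorafenib day 14, 0.237 to 0.493 in water day 28 and 1.96, 2.51 and 2.86 in sorafenib day 28. Its groups did not overlap at either day, and sorafenib lay wholly above water in 10.5% (day 14) and 9.81% (day 28) of 18174 genes. Scgb1a1 was highest in sorafenib day 28 replicate 4, which is among the 5 libraries of highest mesothelial sum. In water day 14 replicate 3, which had the highest sum, it was at 0.56 CPM. Its r with the mean of the 8 genes over the 11 deep libraries was 0.260. After the mean of each group was removed it was 0.761, and without water day 14 replicates 3 and 7 it was 0.578. Of 10 other epithelial genes Krt5 and Krt15 had no count and Epcam was at 0.153 CPM or less, and the sum of the 10 was 0.465 to 2.13 CPM. Of 11 adipocyte genes Adipoq was at 0.345 CPM or less and Plin1 at 0.42 CPM or less, and the sum, nearly all of it from Cidea and Pnpla3, was 124 to 153 CPM in water day 14, 46.0 to 175 in sorafenib day 14, 117 to 138 in water day 28 and 76.9 to 129 in sorafenib day 28. Averaged over the days, Pnpla3, a lipase of lipid droplets, fell with sorafenib (-1.88 ± 0.30, edgeR adjusted p = 0.00979), 1 of 4 tested. The part of these cells in the levels of the 7 genes was not tested.

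Among 7 atrial genes, the atrial myosin light chain Myl7 was at 0.261, 0.407 and 84.3 CPM in water day 14 and at 45.8, 0.69 and 1.27 CPM in sorafenib day 14. At day 28 Myl7 was at 14.9, 34.7 and 3.08 CPM with water and at 19.1, 4.18 and 165 CPM with sorafenib. Water day 14 replicate 7, sorafenib day 14 replicate 5 and sorafenib day 28 replicate 4 were thus the highest of their groups for Myl7 and high for the 7 genes. Water day 14 replicate 3, highest for the 7 genes, was at 0.407 CPM of Myl7, and water day 28 replicate 3 had 34.7 CPM of Myl7 at a sum of the 7 genes of 1.58 CPM. Other atrial genes followed Myl7 only in part. Myl4 and Sln were highest in water day 28 replicate 3 (18 and 4.58 CPM), and Stard10 in sorafenib day 28 replicate 4 (12.9 CPM). Elsewhere they went apart from it. Myl4 was at 1.14 CPM in water day 14 replicate 7, its lowest library, and Dkk3 and Stard10 were lowest in sorafenib day 14 replicate 5 (65 and 4.62 CPM). The sum of the 7 atrial genes was 161 to 225 CPM in water day 14, 148 to 320 in sorafenib day 14, 208 to 433 in water day 28 and 233 to 394 in sorafenib day 28. Averaged over the days, 2 of the 7 fell with sorafenib, where 4.41% of all genes were called: Dkk3 (-0.66 ± 0.18 (SE), edgeR adjusted p = 0.0491) and Sln (0.0235), which had no count in sorafenib day 28. Of 11 fibroblast genes Lum, a collagen-binding proteoglycan, fell (-0.77 ± 0.16, edgeR adjusted p = 0.0231). Fibroblast genes summed to 3738 to 4494, 3031 to 4483, 3560 to 5538 and 2110 to 5543 CPM in the same order of groups. The part of these cells in the levels of the 7 genes was not tested.

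The likeness of other genes to the 8 was measured as Pearson's r with the mean of their log2 CPM over the 11 deep libraries, among 15754 genes with a mean of 1 CPM or more. These 11 libraries share groups and depth, so r is a description. The nearest gene that is no locus number was C4a, a complement component (r = 0.960, Spearman's rho = 0.945, r = 0.916 without water day 14 replicates 3 and 7, the farthest from the median). Next came Gpc3, a glypican (0.910), Skp2, an F-box protein of the cell cycle (0.859), Ddx19b (0.857), Cobl (0.853), Cdc14b (0.849), the cyclin gene Ccna2 (0.842), Megf6 (0.839), the chemokine scavenger Ackr4 (0.818) and the separase gene Espl1 (0.813). Of the genes outside the 8, 2 had an r of 0.9 or more, C4a and Gpc3, and 11 had it after group means were removed. The names depended on the measure: of the 10 named here, 2 were among the nearest 10 after group means were removed and 2 by Spearman's rho, and 7 with all 12 libraries. Gpc3 had a rho of 0.782, and Ddx19b an r of 0.463 with all 12 libraries. Among the 10 named 0 belonged to the list of 18 other mesothelial genes, of which Cldn15, a claudin, was nearest (0.797) at this minimum of 1 CPM. Bnc1 of that list, at a mean of 0.927 CPM, fell just under the minimum. Its r was 0.894, above that of Cldn15 and of Skp2, so both statements depended on the minimum.

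C4a was far more abundant than the 7 genes. It was at 38.7, 158 and 162 CPM in water day 14 and at 81.0, 10.5 and 15.2 CPM in sorafenib day 14. At day 28 C4a was at 13.6, 9.41 and 14.0 CPM with water and at 21.3, 70.2 and 53.6 CPM with sorafenib. The 2 libraries highest for C4a, water day 14 replicates 3 and 7, were thus also those highest for Muc16, Msln and Upk1b, and the water libraries of day 28 were among the lowest. Among the 8 themselves, r between any 2 of the 7 genes lay between 0.69 (Muc16 with Krt19) and 0.96 (Upk1b with Msln), and that of Wt1 with the others between 0.19 and 0.56.

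**Figure D5:**
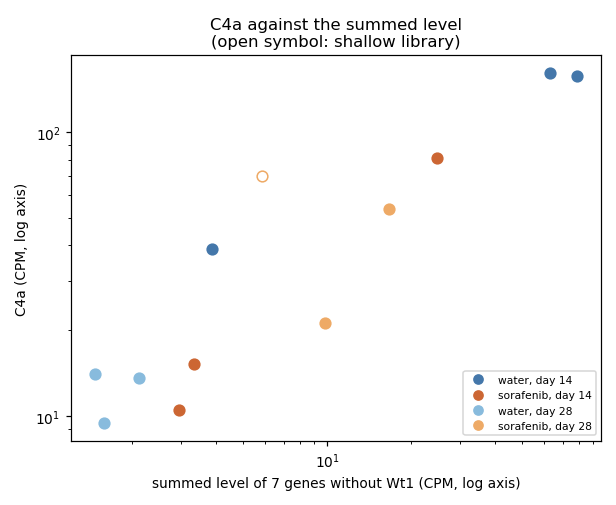
C4a against the summed level of the 7 genes without Wt1, both in TMM-normalized CPM on log axes; each point is a library, coloured by group, and the open symbol is the shallow library. The points rise from the water libraries of day 28, at 9.41 to 14.0 CPM of C4a, to water day 14 replicates 3 and 7, at 158 and 162 CPM.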

How the data were processed

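Heart RNA without ribosomal RNA was made into libraries with a kit that keeps strand, per the labels' protocols. Each deposited table holds whole counts of reads for every gene. Per the file headers, the authors counted with featureCounts 2.0.1 (paired mode, no strand setting) on RefSeq genes of mRatBN7.2, so reads of overlapping genes cannot be told apart. STAR is named without a version in the submitters' processing notes. In the table of day 14, 2 columns match no sample and were not used.

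Counts of all genes were tested with edgeR 4.0.16 (R 4.3.3) after filterByExpr and TMM, using its quasi-likelihood test and robust dispersions. Benjamini-Hochberg adjustment ran over all genes tested, with 0.05 as the threshold. To give an SE, each log2 fold change was divided by the root of its F. The comparisons were sorafenib with water at either day, water at day 28 with water at day 14, and, from 1 fit of all 12 libraries, the mean and the difference of the day effects. Ratios of summed counts carry exact 95% binomial intervals, and shares of single libraries 95% Wilson intervals. The 8 genes and the lists were chosen with earlier results of these data known. Named besides the 8 are the 10 genes of highest r, at a mean of 1 CPM or more, that are no locus number. Of most lists, genes past the threshold or the most abundant are named, with exceptions stated. Among those past the threshold but not given above, Kdr and Emcn fell in the mean of both days (edgeR adjusted p = 0.0215 and 0.0381). The fibroblast gene Pi16 rose in water over time (edgeR adjusted p = 0.0435). The lists of lymphocyte, skeletal muscle and nerve genes are not described. Atrial, airway, epithelial and adipocyte lists are described by their sums and defining markers. Alternatives were DESeq2 1.42.0, RLE factors, other filters, plain dispersions, all groups fitted together, the replicate block and each library left out. The code was tested on simulated counts.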

Additional observations from a re-analysis of the deposited data

How the results depend on the processing

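Depth limits these results most at day 28, where 4 of the 8 genes did not pass the filter and 1 sorafenib library is shallow. In a group of 3 libraries 1 library can set a mean. The cause of the changes below was not tested. Of 481 values of single genes under an alternative, 432 kept their direction and their side of the threshold, 32 reversed, 6 passed the threshold only under the alternative and 11 were lost.

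The count of genes called at day 14 was 438 with DESeq2, 87 without a filter, 4 in a fit of all groups and 0 to 27 with a library left out (27 without water replicate 2, 9 without sorafenib replicate 5). At day 28 it was 279, 82 and 53 under the same alternatives, and 0 to 3 with a library left out. For the mean of both days DESeq2 called 1836, and leaving out a library gave 35 (without sorafenib day 28 replicate 2) to 1562 (without sorafenib day 28 replicate 4). For the difference between days DESeq2 called 9 and leaving out a library gave 0 to 1. For water over time DESeq2 called 2772, and leaving out a library gave 385 (without water day 14 replicate 3) to 1703, with 573 without water day 14 replicate 2 and 651 without water day 28 replicate 3.

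In the titles same-numbered libraries share a number, and whether they belong together was not settled here. At day 28 same-numbered water and sorafenib libraries had deviations that correlated at 0.115, 0.002 and 0.163 for replicates 2, 3 and 4. Replicates 2 and 4 each correlated best with their own number, against -0.161 and -0.125 between these numbers. Water replicate 3 correlated better with sorafenib replicate 2 (0.05). Between the water groups the values of same-numbered libraries were 0.018 and -0.023 for replicates 2 and 3. With the replicate block the counts were 108 at day 28, 37 for the mean, 2 for the difference and 2171 for water over time, and the groups of day 14 share only number 7. With the block Muc16 at day 28 was at 4.06 (edgeR adjusted p = 0.0423). In the difference Muc16 and Msln were at 8.79 and 8.28 (0.00612 each), and in water over time Muc16 was at -5.22 (0.374). In the mean the block turned Muc16 to -0.35, Msln to -1.45 and Lrrn4 to -0.38, and Wt1 at day 28 to 0.09.

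Wt1 at day 28 was also at 0.08 with DESeq2 and 0.01 with a stricter filter. Upk1b in the mean was at 0.09 with DESeq2. With a library left out, Wt1 at day 28 was between -0.39 and 0.24 and in the difference between -0.05 and 0.61. In the mean Muc16 lay between -0.01 and 1.62, Upk1b between -0.81 and 0.25, Upk3b between -0.68 and 1.21, Msln between -0.98 and 0.43, Lrrn4 between -0.26 and 0.38 and Krt8 between -0.56 and 0.30. Without a filter the calls of Muc16 and Msln in water over time were lost (adjusted p = 0.155 and 0.127), and Lrrn4 passed with DESeq2 (0.000487) and in a fit of all groups (0.0214).

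The log2 ratio of the mean sums of all 8 genes was -1.11 at day 14, 0.48 at day 28 and -1.63 for water over time. Without Wt1, the most abundant gene, it was -2.23, 2.65 and -4.82. With a library left out, the ratio of all 8 genes ranged from -1.66 to -0.85, 0.19 to 0.65 and -1.94 to -1.34. As a ratio of summed counts of the 7 genes without Wt1, an alternative chosen after seeing the data, leaving out a library gave 0.0619 to 0.321 for sorafenib to water at day 14, 6.31 to 9.54 at day 28, 22.1 to 48.1 for water day 14 to day 28 and 0.256 to 1.26 for sorafenib day 14 to day 28. For Muc16 at day 28, likewise added, it gave 18.2 to 56.5. The count of genes with r of 0.9 or more was 2, and it was 0 with all 12 libraries, 11 after group means were removed, 10 by Spearman's rho and 5 at a minimum mean of 0.2 CPM, an alternative chosen after seeing the data.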
